A study of Mus musculus with 8 samples.

Results

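Epithelial cells of Reissner's membrane were picked out of 8 droplet libraries of single cells from the mouse organ of Corti. A cell was taken as a member when at least 3 of the 6 marker genes Vmo1, Crhbp, Lrp2, Dkk2, Rnase1 and Slc26a7 had 1 or more unique molecular identifiers (UMIs, each tagging 1 captured transcript) and Ptprc, the pan-leukocyte antigen CD45, had none. This rule took 404 of 6023 cells (6.71%) that had at least 500 detected genes and under 25% mitochondrial UMIs, out of 8061 deposited barcodes. Because the members were selected on these counts, the 6 markers and Ptprc are no finding, and every contrast between members and the other cells is given as a description without a test.

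Reissner's membrane is the thin sheet that closes the cochlear duct towards the scala vestibuli. It is built of an epithelial layer facing the potassium-rich endolymph and a mesothelial layer facing the perilymph. Its epithelial cells are known to absorb sodium through the epithelial sodium channel ENaC, and with it they form part of the barrier that keeps both fluids apart.

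The study followed the conversion of supporting cells into hair cells by ectopic Atoh1, the transcription factor that drives hair cell formation. Every animal was Fgfr3iCre+, Atoh1-HA+, Chrna9-GFP+ and Rosa26-CAG-loxP-stop-loxP-tdTomato+, so the control groups carried the same alleles. Cre under Fgfr3 control acts in Deiters' and pillar supporting cells, and tamoxifen, injected at P12-13, was given to start the transgene in the animals of 3 Coch + Tmx P26 and 2 Coch + Tmx P33 libraries, called induced below by their labels. The uninduced libraries were Coch P12 (n = 2) and Coch P33 (n = 1), and the lateral wall of the cochlea had been removed during dissection. The 6 libraries of P26 or P33 are called later libraries. Since 5 of these 6 were induced and both P12 libraries were not, age and induction overlap, and outside the single Coch P33 library they cannot be told apart. The study states 2 biological replicates per group, whereas the labels give 3 libraries of Coch + Tmx P26 and 1 of Coch P33. The labels do not say which libraries came from separate animals, so p-values measure only the spread between these samples.

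The libraries held from 3972800 to 13423524 UMIs, and no pair of libraries shared more than 3 barcodes. Atoh1 over all kept cells was at 175, 90.5 and 12.3 CPM (UMIs of a gene per 1000000 UMIs of the summed cells) at Coch + Tmx P26, and at 524 and 415 CPM a week later in Coch + Tmx P33. The uninduced levels were 18.0 and 23.7 CPM at P12 and 17.5 CPM at P33. The library labelled Coch + Tmx P26 rep 3 was therefore at the level of the uninduced libraries, and results are also given without it. The study told endogenous Atoh1 by its untranslated region and the transgene by its HA tag. The counts used here do not separate them, so whether the transgene was started in this library was not tested.

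Among kept cells, members made up 9.61% (77 of 801 cells), 3.51% (20 of 569) and 5.42% (32 of 590) of the Coch + Tmx P26 libraries. They made up 6.77% (34 of 502) and 7.95% (57 of 717) in Coch + Tmx P33. The uninduced libraries differed most among themselves, with 3.55% (49 of 1382) and 7.38% (65 of 881) at P12 and 12.05% (70 of 581) at P33. The exact 95% binomial intervals reached from 2.63 to 4.66% in Coch P12 rep 1 and from 9.51 to 14.98% in Coch P33, and they cover counting error only. Median depth of members ranged from 6683 UMIs in Coch + Tmx P33 rep 1 to 13966 in Coch P12 rep 2 and 16070 in Coch P33. The libraries also differed in the number of markers found per member. In all, 47.7% of the members of Coch P12 rep 2 and 35.7% of the Coch P33 members had 5 or 6 markers, against 75.0% to 100% of those of the other 6 libraries.

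**Figure D1:**
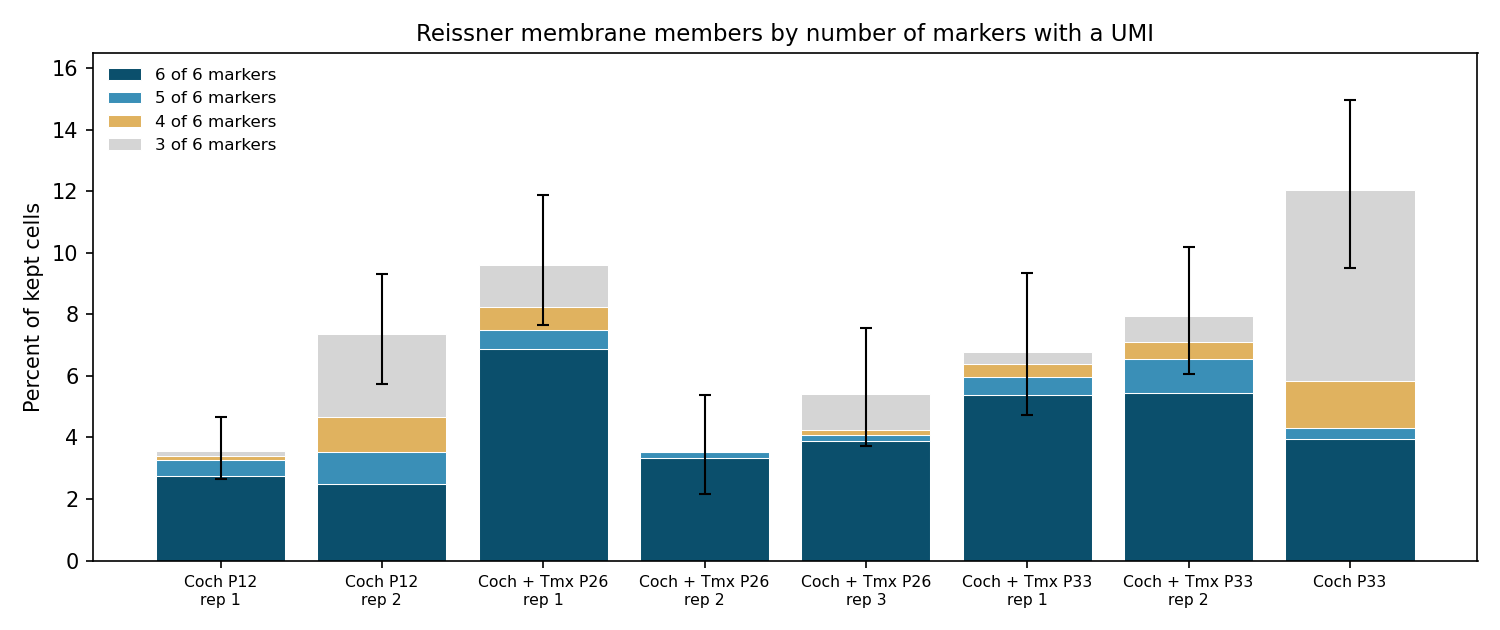
Share of kept cells taken as Reissner's membrane members in each of the 8 libraries (y axis, percent of kept cells), with bars divided by the number of markers with a UMI and error bars giving exact 95% binomial intervals of the whole bar. The grey part, cells with 3 markers, is widest in Coch P12 rep 2 (24 cells) and Coch P33 (36 cells) and absent in Coch + Tmx P26 rep 2.

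Genes outside the rule were used to check the label. Among kept cells without a Ptprc UMI, 88 had exactly 3 markers, just inside the rule, and 477 had 2, just outside it. Epcam, an epithelial adhesion molecule, had a UMI in 97.2% of the 246 cells with all 6 markers, in 94.4% of the 36 with 5, in 73.5% of the 34 with 4, in 44.3% of those with 3 and in 40.5% of those with 2. The homeobox factor Otx2, known from the roof of the cochlear duct from which the membrane forms, followed the same order with 84.1%, 75.0%, 20.6%, 5.68% and 1.26%. Krt18, a keratin of simple epithelia, was found in 93.5% of cells with 6 markers and in 23.9% of cells with 3.

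Stromal transcripts took the opposite course. Col1a2, a type I collagen chain, had a UMI in 12.2% of cells with 6 markers and in 58.0% of cells with 3, and Dcn, a small proteoglycan of connective tissue, in 15.9% and 54.5%. Cells with 3 markers were also the deepest, with a median of 17850 UMIs against 8233 in cells with 6. Of the 122 members with 3 or 4 markers, 88.5% had UMIs of at least 3 markers of 1 other cell type (hair cell, stromal, macrophage, neutrophil, Schwann, neuron, endothelial or melanocyte), against 38.7% of the 282 members with 5 or 6. Among cells with 5 or 6 markers this held for 28 of 31 in Coch P12 rep 2, 20 of 25 in Coch P33 and 15 of 24 in Coch + Tmx P26 rep 3. It held for 8 of 45 in Coch P12 rep 1, 12 of 60 and 7 of 20 in Coch + Tmx P26 rep 1 and rep 2, and 7 of 30 and 12 of 47 in Coch + Tmx P33. The label Reissner's membrane epithelium was thus carried by the 282 cells as a whole, while the cells with 3 markers went against it. In Coch P12 rep 2 and Coch P33 most cells with 5 or 6 markers also held transcripts of another type. Values of the 282 cells are given without a test, because this narrower set was chosen after its values had been seen. Tests use all members or, as an alternative, members with at least 4 markers.

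Transcripts of the markers were also found in cells of other types, in some libraries more than in others. Vmo1 had a UMI in 8.47% to 13.5% of Ptprc-positive cells in Coch + Tmx P26 rep 2 and rep 3, Coch + Tmx P33 rep 1 and Coch P12 rep 1. The share was 34.5% to 51.6% in Coch + Tmx P26 rep 1, Coch + Tmx P33 rep 2, Coch P12 rep 2 and Coch P33. Median depths of Ptprc-positive cells lay between 4236 and 9558 UMIs, and 0 to 4 of them per library had 3 or more markers. The part of free RNA and of mixed droplets in these shares and in the members with 3 markers was not tested.

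**Figure D2:**
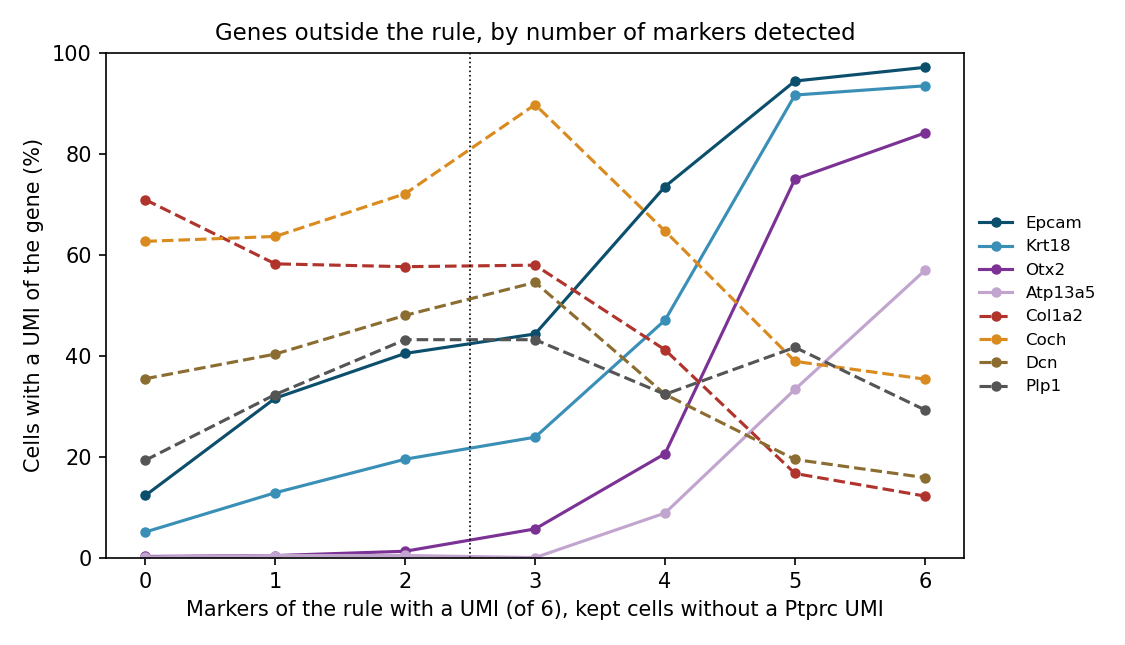
Percent of kept cells without a Ptprc UMI that had a UMI of each of 8 genes outside the rule (y axis), by the number of the 6 markers detected (x axis; dotted line, the limit of the rule at 3). Solid lines of epithelial and duct roof genes climb steeply from 3 to 5 markers (Otx2 from 5.68% to 75.0%), and dashed lines of stromal and Schwann cell genes lie higher at 3 markers than at 6 (Col1a2, 58.0% and 12.2%).

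The 25 genes with the largest ratio of members to other kept cells were each higher in members in 8 of 8 libraries. Cndp2, a cytosolic dipeptidase, led with 4419 CPM (median of 8 libraries, range 1188 to 5175) against 50.0 CPM in the other cells. It had a UMI in all of the 282 cells with 5 or 6 markers and in 25.2% of other kept cells. Gpx3, the secreted glutathione peroxidase, followed at 3586 CPM (460 to 6100) against 48.7 CPM. Lect1, the cartilage matrix glycoprotein chondromodulin, stood at 2845 CPM (874 to 4981) against 57.1. Sptssa, a subunit of the serine palmitoyltransferase that starts sphingolipid synthesis, was at 2793 CPM against 195 and was thus abundant outside the members as well. The secreted ribonucleases Ang4 and Ang5 were at 673 and 570 CPM against 4.98 and 3.5, but they belong to a family of near-identical genes, so how reads were split between them is uncertain.

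Transcription factors were among these genes. Otx2 was at 204 CPM in members (69.0 to 383) and at 0.55 CPM in other kept cells. Meis1, a TALE homeobox factor, was at 343 CPM against 3.39, and Cited1, a transcriptional co-activator, at 285 against 10.2. In the cells with 5 or 6 markers Otx2 was at 302 CPM (150 to 389), Otx1 at 93.1 CPM (68.5 to 117) and Emx2 at 266 CPM (206 to 363), and Pax2 had a UMI in 28.7% of them. Otx1 was at 0.55 CPM in other kept cells and Emx2 at 12.2 CPM. Gata3, a factor of the supporting and nonsensory epithelium, went the other way, with 41.1 CPM in the cells with 5 or 6 markers against 574 CPM in the 1056 other epithelial cells (Epcam UMI, no Ptprc UMI, no members).

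Further leading genes belonged to membranes, vesicles and signalling. Tmem72, a membrane protein, was at 410 CPM against 0.84 in other kept cells. Rab27b, a GTPase of secretory vesicles, was at 415 CPM against 12.3 and Tm4sf5, a tetraspanin-like membrane protein, at 194 against 1.07. Stim2, a calcium sensor of the endoplasmic reticulum, was at 729 CPM against 27.2, and Slc6a15, a neutral amino acid transporter, at 234 against 5.68. Among signalling genes Gfra1, a GDNF co-receptor, stood at 424 CPM against 30.5, Sulf1, which trims heparan sulfate, at 529 against 36.3, and Sgk3, a kinase of the SGK family, at 389 against 21.5. Maob, which oxidises monoamines, was at 167 CPM against 3.20, and F3, tissue factor, at 192 against 9.33. The other 6 of the 25 were the tight junction gene Cldn8, described below, and Fut9, Pcdh20, Dapl1, Abhd2 and Znrf2, with medians from 174 CPM (Fut9) to 754 CPM (Dapl1).

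Genes of sodium absorption were detected in every library. Scnn1b, the beta subunit of ENaC, was in the cells with 5 or 6 markers at 188 CPM (98.4 to 269), Scnn1a, the alpha subunit, at 98 CPM (46.6 to 280) and Scnn1g, the gamma subunit, at 32.0 CPM (7.77 to 42.2). All 3 subunits were higher in members than in other kept cells and than in other epithelial cells in 8 of 8 libraries. Scnn1b had a UMI in 75.5% of the 282 cells against 3.35% of other kept cells, at a median depth of 8149 UMIs in the former and of 3489 to 8541 UMIs per library in the latter. Sgk1, the kinase that keeps ENaC at the surface, was at 272 CPM (192 to 506) and higher than in other epithelial cells in 7 of 8 libraries.

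Receptors that steer this channel were detected at lower counts. Nr3c2, the mineralocorticoid receptor, was at 27.7 CPM in the 282 cells (18.2 to 41.4) and higher in members than in other epithelial cells in 8 of 8 libraries. Nr3c1, the glucocorticoid receptor, was at 36.2 CPM (24.0 to 72.5) and higher in members than in other kept cells in 0 of 8 libraries. Hsd11b2, the enzyme that shields the mineralocorticoid receptor from glucocorticoids, had no UMI in the 282 cells.

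The Na,K-ATPase, which drives sodium out on the far side of the cell, has a catalytic alpha and a regulatory beta subunit. The beta subunit Atp1b2 was at 754 CPM (386 to 1125) in the cells with 5 or 6 markers and higher in members than in other epithelial cells in 8 of 8 libraries. A further beta subunit, Atp1b1, was at 415 CPM (260 to 730) against 895 CPM in other epithelial cells, and members were higher in 2 of 8 libraries. Atp1b2 stood at 76.6 CPM in the other epithelial cells.

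Of the 35 genes listed for transport of potassium, chloride and bicarbonate, 6 had a median of at least 50 CPM in the 282 cells, 20 had a median under 10 CPM and 7 of these 20 had no UMI. Slc26a4, the anion exchanger pendrin, was at 131 CPM (49.2 to 201), Slc4a2, an anion exchanger, at 123 CPM (69.9 to 197), Slc12a2, the sodium-potassium-chloride cotransporter, at 107 CPM (51.1 to 126) and Kcnq1, a potassium channel, at 32.3 CPM (23.3 to 76.6). Kcne1, the partner of Kcnq1 in marginal cells of the stria vascularis, was at 0 in 7 of 8 libraries and at 2.74 CPM in Coch P33, and Bsnd had no UMI in any kept cell. Atp13a5, a P-type ATPase of the marginal cell list, was at 99.5 CPM (76.7 to 136) against 0.39 CPM in other kept cells. Summed over the 7 marginal cell genes the cells with 5 or 6 markers held 137 to 230 CPM.

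Calcium extrusion was represented by Atp2b2, a plasma membrane calcium pump, at 199 CPM (126 to 340), while 10 of the 14 genes of calcium transport had a median under 10 CPM in the 282 cells. None of the 10 aquaporins, the water channels, had a median of at least 50 CPM, and 5 had no UMI. Of the connexins, Gjb2, the connexin 26 of supporting cells, was at 23.8 CPM (4.37 to 373, the highest in Coch P33) against 536 CPM in other epithelial cells, and none of the 7 gap junction genes had a median of at least 50 CPM in the 282 cells.

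Among tight junction genes the claudin Cldn8 was at 582 CPM in the 282 cells (430 to 695) against 41.9 CPM in other epithelial cells. Of 27 tight junction genes, 10 had a median of at least 50 CPM in these cells, and 11 were higher in members than in other kept cells in 8 of 8 libraries. Against other epithelial cells, 2 of the 27 were higher in members in 8 of 8 libraries and 9 were higher in none. In endocytosis the megalin receptor Lrp2 was a marker of the rule. Its chaperone Lrpap1 was at 859 CPM in the 282 cells (623 to 996) against 129 CPM in other epithelial cells, whereas Cubn and Amn, which form the partner receptor cubam, had no UMI in these 282 cells.

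**Figure D3:**
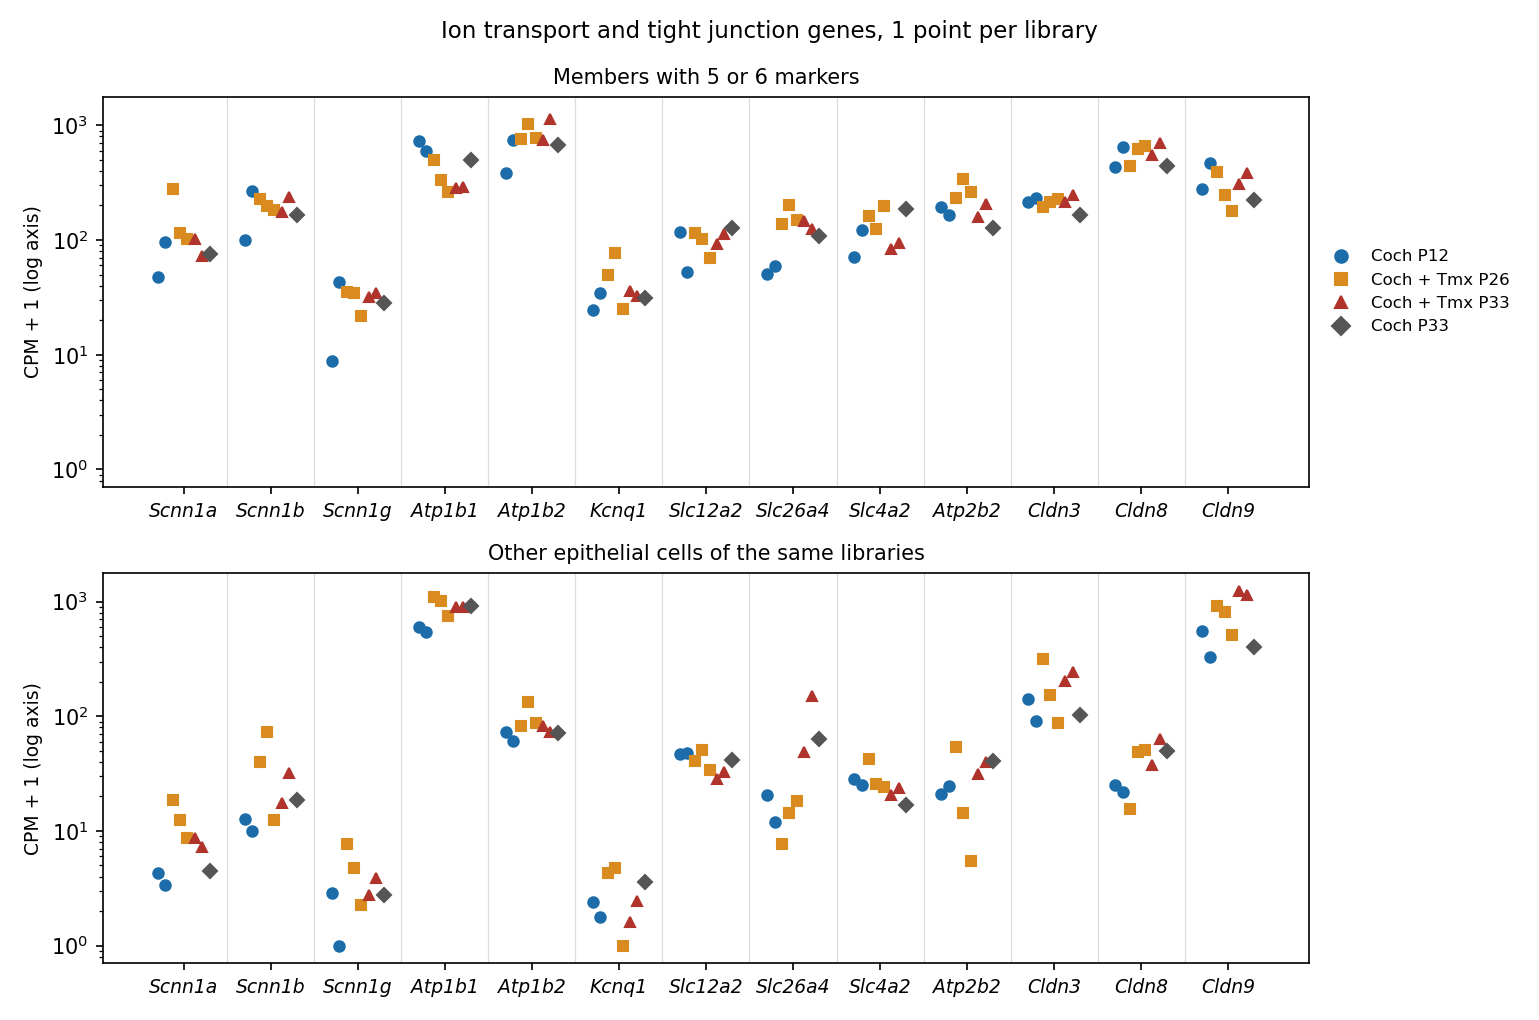
Levels of ion transport and tight junction genes, in CPM + 1 on a log axis, with 1 point per library. The upper panel shows members with 5 or 6 markers and the lower panel other epithelial cells of the same libraries, where Scnn1b (median 188 and 17.1 CPM), Atp1b2 (754 and 76.6) and Cldn8 (582 and 41.9) lie lower and Atp1b1 (415 and 895) lies higher.

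Several secreted signals and their modulators were found. Wnt4, a Wnt ligand, was at 178 CPM in the 282 cells (71.3 to 207) against 8.79 in other epithelial cells. Sfrp5, a secreted Wnt antagonist, was at 36.7 CPM (21.8 to 193), with Coch + Tmx P26 rep 1 the highest. Sostdc1, a secreted antagonist of BMP and Wnt, was at 103 CPM (34.5 to 158) against 0 CPM in other epithelial cells, and Id4, a BMP target, at 293 CPM (180 to 338) against 89.5. Fgf9 stood at 105 CPM (81.1 to 179), and Dhrs3, which reduces retinal, at 476 CPM (326 to 614) against 33.3 CPM. Of the 40 genes listed for the Wnt pathway, 8 were higher in members than in other kept cells in 8 of 8 libraries and 10 were higher in none.

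Ttr, transthyretin, the carrier of thyroid hormone and retinol, varied between libraries. Ttr in the cells with 5 or 6 markers was at 1018, 340 and 737 CPM in Coch + Tmx P26 and at 563 and 26.4 CPM in Coch + Tmx P33. The uninduced values were 347 and 42.2 CPM at P12 and 795 CPM at P33, so libraries of every group with more than 1 library differed several-fold and the groups overlapped. It had a UMI in 38.7% of these cells and in 0.93% of other kept cells.

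Type IV collagens mark the basement membrane under the epithelium. Col4a4 was at 68.3 CPM in the 282 cells (49.3 to 209) and Col4a3 at 20.7 CPM (8.22 to 75.1), both higher in members than in other epithelial cells in 8 of 8 libraries. Of the 22 basement membrane genes, 12 had a median under 10 CPM in the 282 cells.

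The share of members was compared between ages and between induced and uninduced libraries. It was 7.55% ± 3.04 (SD, n = 6) in later libraries and 5.46% ± 2.71 (SD, n = 2) at P12, or 2.09 points more (exact two-sided permutation test, p = 0.464, where the smallest p of the 28 arrangements is 0.0357). Induced libraries had 6.65% ± 2.34 (SD, n = 5) and uninduced ones 7.66% ± 4.26 (SD, n = 3), which is -1.002 points apart (exact two-sided permutation test, p = 0.696, smallest possible 0.0179). Neither difference was larger than the spread between libraries. The second one had the opposite sign, 1.14 points (p = 0.429, same exact test), among members with at least 4 markers. With the library labelled Coch + Tmx P26 rep 3 left out, both differences were 2.52 and -0.695 points. Counted as cells with 5 or 6 markers, members were 7.49%, 3.51% and 4.07% of kept cells in Coch + Tmx P26, 5.98% and 6.56% a week later, 3.26% and 3.52% in Coch P12, and 4.3% in the Coch P33 library.

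Depth entered these shares. After every cell was thinned to 2000 UMIs, which left out 41 shallower cells of Coch + Tmx P26 rep 2, the rule took 8.36%, 3.79% and 4.07% of cells in Coch + Tmx P26, 6.37% and 7.39% of those of Coch + Tmx P33, 3.40% and 4.09% at P12 and 4.48% of Coch P33 cells. Coch P33, the library with the largest share before thinning, then lay within the range of the others.

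Members were next examined for what differed with age. UMIs were summed over the members of each library, and edgeR's quasi-likelihood test was run on 7734 genes, of which 6 (0.0776%) passed an adjusted p (Benjamini-Hochberg) of 0.05. The 5 lower genes (0.0646%) in later libraries were Oc90, Klk8, Wisp1, Nrep and Col11a1, and the 1 higher gene (0.0129%) was Nr1d1. Later and P12 libraries did not overlap in CPM for any of the 6, as was the case for 613 of the 7734 genes (7.93%). Because all groups come from summed cells, fewer transcripts per cell and fewer cells with the transcript cannot be told apart.

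Oc90 encodes otoconin-90, the main matrix protein of otoconia, which the nonsensory epithelium of the developing inner ear secretes. It was at 1233 and 432 CPM in Coch P12 (1159 UMIs in all) and between 0 and 7.35 CPM in the later libraries (median 0, 6 UMIs in all). It fell by 8.76 on the log2 scale (SE 0.70, adjusted p = 0.00188, edgeR's quasi-likelihood test). In the cells with 5 or 6 markers Coch P12 held 1204 and 1274 CPM, so both P12 libraries were close to each other there, and the later libraries 0 to 8.11 CPM. Other epithelial cells held 45.5 and 2.76 CPM in Coch P12 and at most 4.16 CPM in later libraries.

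Wisp1, a secreted matricellular protein of the CCN family, was at 106 and 214 CPM in Coch P12 and from 0 to 20.6 CPM (median 10.2) later, a log2 change of -3.74 (SE 0.46, edgeR adjusted p = 0.0318). Nrep, a small protein found in regenerating neurons and in stroma, was at 239 and 381 CPM and from 9.58 to 58.2 CPM (median 26.5) later, a log2 change of -3.29 (SE 0.44, edgeR adjusted p = 0.0356). Col11a1, a chain of the fibrillar type XI collagen, was at 59.7 and 209 CPM and from 9.58 to 22.1 CPM (median 14.4) later, a log2 change of -3.17 (SE 0.45, edgeR adjusted p = 0.0488). Each of these 3 genes was higher in Coch P12 rep 2 than in rep 1 over all members, while in the cells with 5 or 6 markers the P12 values were 67.3 and 68.9 CPM for Wisp1, 233 and 167 for Nrep and 64.7 and 77.8 for Col11a1. None of the later libraries reached these P12 values in the narrower set, where the highest later values were 8.73, 38.1 and 16.8 CPM.

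Klk8, the secreted serine protease neuropsin, was at 27.6 and 97.2 CPM in Coch P12 and from 0 to 6.06 CPM (median 2.80) later, a log2 change of -4.44 (SE 0.58, edgeR adjusted p = 0.0356). It was at 18.1 and 35.6 CPM in the P12 cells with 5 or 6 markers, and it did not pass the test among members with at least 4 markers. Nr1d1, the REV-ERB alpha repressor of the circadian clock, was at 18.4 and 14.6 CPM in Coch P12 and from 66.2 to 129 CPM (median 96.5) later, and it rose by 2.5 on the log2 scale (SE 0.30, edgeR adjusted p = 0.0318).

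Markers of other cell types were summed in the same members. The summed level of 10 stromal genes in all members was 588 and 9225 CPM at P12, from 263 to 2412 CPM in the induced libraries and 3594 CPM in the Coch P33 library. Summed over 6 Schwann cell genes it was 96.4 and 13627 CPM in Coch P12, 96.4 to 1256 CPM in the 5 induced libraries and 685 CPM in Coch P33. Coch P12 rep 1 thus lay within the later range on both sums and Coch P12 rep 2 above it, while Oc90 was higher in rep 1. In the cells with 5 or 6 markers stromal sums were 474 and 818 CPM in Coch P12 and 153 to 1326 CPM later. The part of these cells in the differences was not tested. Leaving out Coch P12 rep 2 and Coch P33 gave 13 calls, 2 of them among the 6 above, and 1 call, Oc90, was left without Coch + Tmx P26 rep 3.

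With at least 4 of the 6 markers required, 23 of 7014 genes (0.328%) passed, 18 lower and 5 higher in later libraries. They included 5 of the 6 genes above, the exception being Klk8. Stromal sums in this set were 523 and 5657 CPM in Coch P12, 221 to 449 CPM in the induced libraries and 2891 CPM in Coch P33, and Schwann sums 101 and 1650 CPM, 102 to 1408 CPM and 1270 CPM. Of the 10 stromal genes 8 were tested here, 6 had an estimate below 0 (median log2 change -1.36 over the 8) and none passed. The part of stromal cells in the calls was not tested. Sparc, a collagen-binding matricellular protein, was at 4042 and 4395 CPM in Coch P12 and from 347 to 709 CPM (median 505) later, and fell by 3.01 on the log2 scale (SE 0.24, edgeR adjusted p = 9.24e-05). Col9a1, a type IX collagen chain, was at 40.4 and 137 CPM and at most 5.70 CPM later. Npnt, nephronectin, an integrin ligand of basement membranes, was at 159 and 53.8 CPM against 4.08 to 15.7 CPM.

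Col4a4, a chain of the type IV collagen described above, was at 179 and 174 CPM at P12 and from 28.5 to 79.8 CPM (median 55.2) later, a log2 change of -1.68 (SE 0.28, edgeR adjusted p = 0.0255). Col11a2, Chadl, a chondroadherin-like matrix protein, and Sned1, a further matrix protein, passed as well, with log2 changes of -1.98, -1.78 and -1.64. Each of the 22 basement membrane genes that could be tested, 11 in number, had an estimate below 0 in both selections, with a median log2 change of -0.98 over all members and -1.08 with at least 4 markers, against 0.01 over all genes tested in each. Of these 11, none passed over all members and 1, Col4a4, with at least 4 markers.

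Nnat, the imprinted gene neuronatin, was at 1632 and 1130 CPM in Coch P12 and from 0 to 78.3 CPM (median 3.91) later among members with at least 4 markers, a log2 change of -5.78 (SE 0.81, edgeR adjusted p = 0.00772). Over all members it was at 1490 and 1057 CPM against 0 to 139 CPM without passing (edgeR adjusted p = 0.228). Igf1, the growth factor, was at 909 and 491 CPM against 161 to 275 CPM, Tpm1, a tropomyosin, at 381 and 222 against 85.7 to 121, Ifi30, a lysosomal thiol reductase, at 96.0 and 95.9 against 16.3 to 35.6, and Wipi1, an autophagy protein, at 58.1 and 53.8 against 13.5 to 23.9. All 4 passed the test with log2 changes between -1.71 and -1.55.

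Among the genes that were higher later, Gstm2, a glutathione transferase, was at 35.4 and 42.1 CPM in Coch P12 and from 89.2 to 180 CPM (median 131) later, a log2 change of 1.74 (SE 0.32, edgeR adjusted p = 0.0477). Bex1, a small adaptor protein, was at 37.9 and 34.9 CPM against 95.4 to 188 CPM, a log2 change of 1.82 (SE 0.30, edgeR adjusted p = 0.0231). For the 14 genes plotted below, P12 and later libraries did not overlap in the cells with 5 or 6 markers either, as was the case for 923 of 7734 genes (11.9%). Because these cells are part of the members on which the genes were called, this adds no independent evidence.

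**Figure D4:**
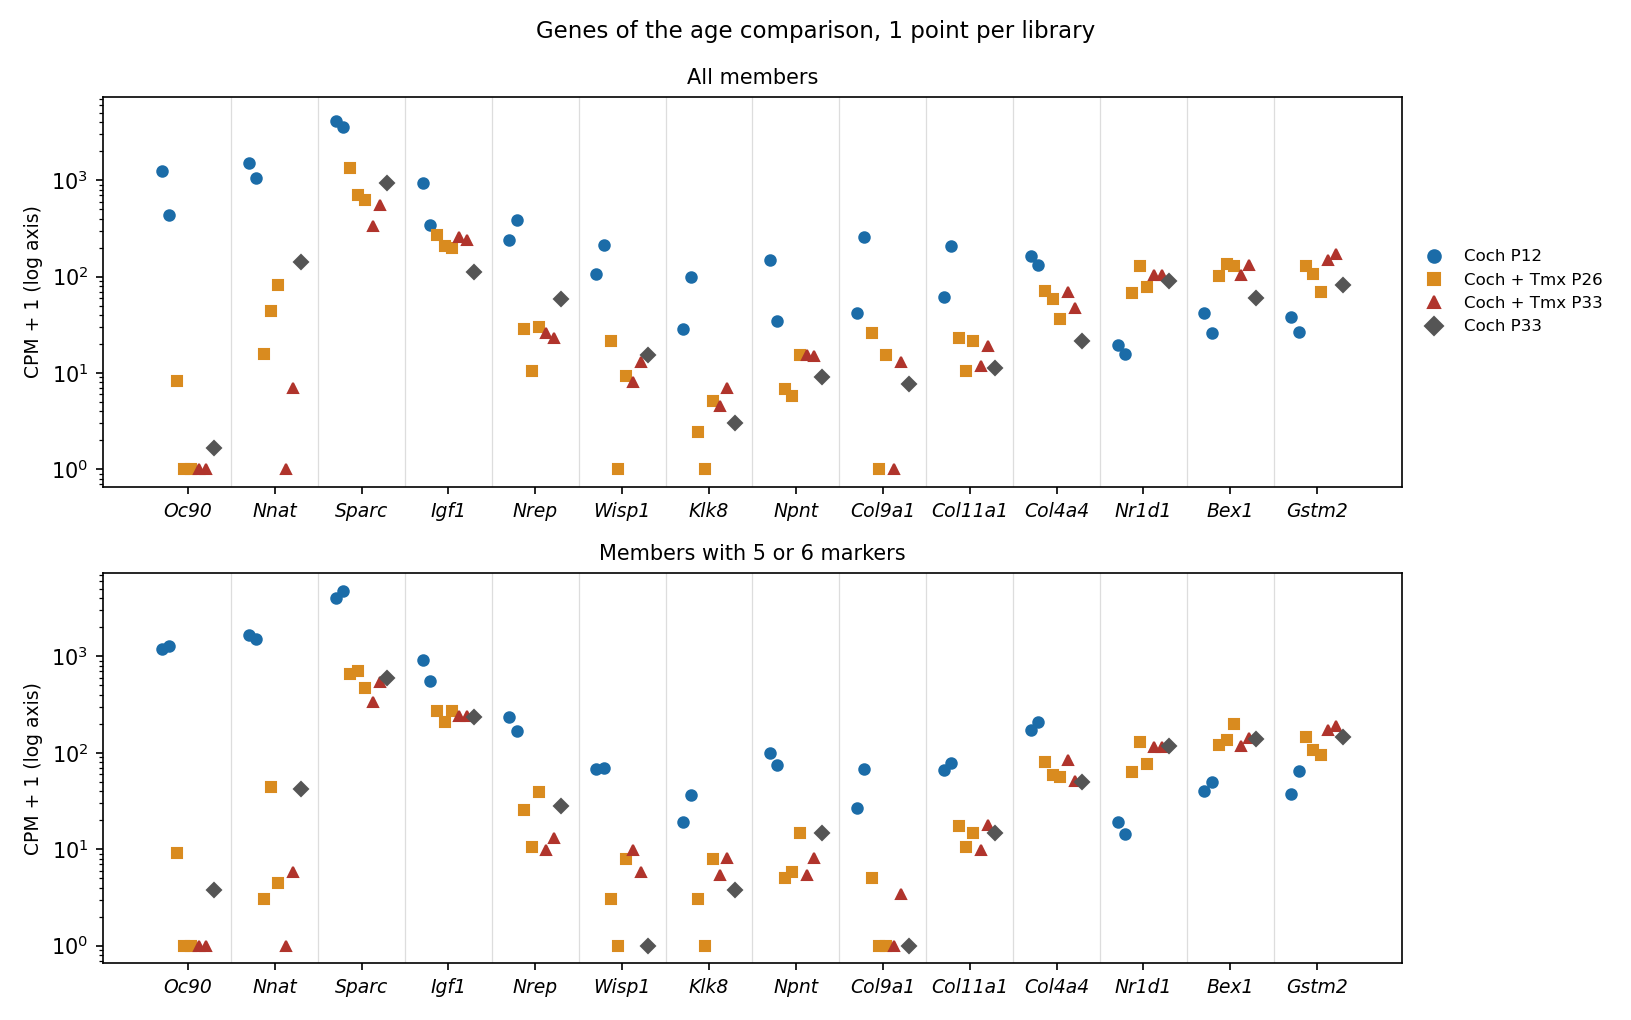
Levels of 14 genes of the age comparison, in CPM + 1 on a log axis, with 1 point per library and symbols by group. Coch P12 lies above all later libraries for Oc90 to Col4a4 and below them for Nr1d1, Bex1 and Gstm2, over all members (upper panel) and in members with 5 or 6 markers (lower panel), where Oc90 was at 1204 and 1274 CPM in Coch P12 and at most 8.11 CPM later.

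Gpx3, one of the most abundant transcripts of these cells, was at 841 and 460 CPM in Coch P12, at 5347, 4138 and 3035 CPM in Coch + Tmx P26, at 6100 and 5203 CPM in Coch + Tmx P33 and at 643 CPM in the uninduced P33 library. The 5 libraries labelled as induced lay above the 3 uninduced ones. Among the former was Coch + Tmx P26 rep 3 (3035 CPM), whose Atoh1 level was that of the uninduced libraries. How many of all genes split the libraries in this way was not counted, and a link to induction was not tested. The fit of later against P12 gave a log2 change of 2.62 (SE 0.71) that did not pass (edgeR adjusted p = 0.347). Among cells with 5 or 6 markers, Coch P33 was at 2527 CPM, between 945 and 1378 CPM at P12 and 4138 to 7348 CPM in the induced libraries. Slc26a4 was at 49.2 and 57.8 CPM at P12 in that narrower set and from 107 to 201 CPM later, and over all members its log2 change of 1.67 (SE 0.57) did not pass (edgeR adjusted p = 0.491).

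The other gene groups held few calls. Of all 7734 genes tested, 51.3% had an estimate above 0. Of the 18 genes of potassium, chloride and bicarbonate transport tested over all members, 16 had an estimate above 0 (median log2 change 0.62) and none passed. Interferon response genes had 12 of 13 estimates above 0 (median 0.91) and genes of MHC class I and II 6 of 6 (median 0.89), again with none passing. For ENaC the estimates were 1.32 (SE 0.68) for Scnn1a, 0.65 (SE 0.45) for Scnn1b and 0.71 (SE 0.56) for Scnn1g, with edgeR adjusted p between 0.668 and 0.806. Of the 23 Wnt and 8 cell cycle genes tested none passed.

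To ask whether an age difference was particular to members, the change was compared with that in the other epithelial cells of the same libraries, with library as a block. None of 11362 genes passed edgeR's quasi-likelihood test of this interaction, with 507 at an unadjusted p under 0.05, and none passed DESeq2 (247 at an unadjusted p under 0.05). Oc90 had an interaction estimate of -4.47 (SE 1.73, edgeR adjusted p = 1). No gene's change with age was therefore shown to differ between members and the other epithelium. The other epithelial cells were taken by an Epcam UMI without further epithelial markers, and the part of other cell types among them was not tested.

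The induced libraries were then compared between P33 and P26, in 1 fit with all 4 groups. Of 8943 genes 14 (0.157%) passed edgeR's test, and all 14 (0.157%) were higher at P33. Of the 6 genes listed for neurons, 3 were among them (Nefl, Nefm and Snap25). The groups did not overlap for any of the 14, and for 1979 of the 8943 genes (22.1%) they did not. Snap25, a SNARE protein of synaptic vesicle release, was at 5.88, 0 and 4.11 CPM in Coch + Tmx P26 and at 275 and 96.9 CPM in Coch + Tmx P33, a log2 change of 5.30 (SE 0.62, edgeR adjusted p = 0.0412). Nefl, the light neurofilament chain, had no UMI in Coch + Tmx P26 and was at 118 and 66.6 CPM in Coch + Tmx P33. Nefh, the heavy chain, was at 1.47, 0 and 2.06 CPM against 204 and 94.9 CPM. Coch P33, which does not enter this contrast, was higher than both, at 818 CPM for Snap25, 436 for Nefl and 813 for Nefh.

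Nefm, Stmn3, Sncb, Cplx1 and Ndrg4 also passed, with 40.4 to 243 CPM in Coch + Tmx P33 and at most 6.17 CPM (Ndrg4) in Coch + Tmx P26. Slc17a7, Kcnab2 and Chgb passed as well, had a P33 mean under 50 CPM and are named after their values were seen. None of the 8 genes plotted below exceeded 7.21 CPM (Cplx1) in the Coch + Tmx P33 cells with 5 or 6 markers. Snap25 was there at 0 and 4.81 CPM in Coch + Tmx P33, against 4.06, 0 and 3.46 CPM in Coch + Tmx P26, and Nefl at 0 and 2.40 CPM against no UMI. The summed level of 6 neuronal genes was 575 and 238 CPM over all Coch + Tmx P33 members and 8.73 and 12 CPM in those with 5 or 6 markers. None of the 14 passed among members with at least 4 markers, where Snap25 had an estimate of -0.01, and no gene passed edgeR's test when any 1 of the 3 Coch + Tmx P26 libraries was left out (311 at an unadjusted p under 0.05 without the one labelled rep 3).

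**Figure D5:**
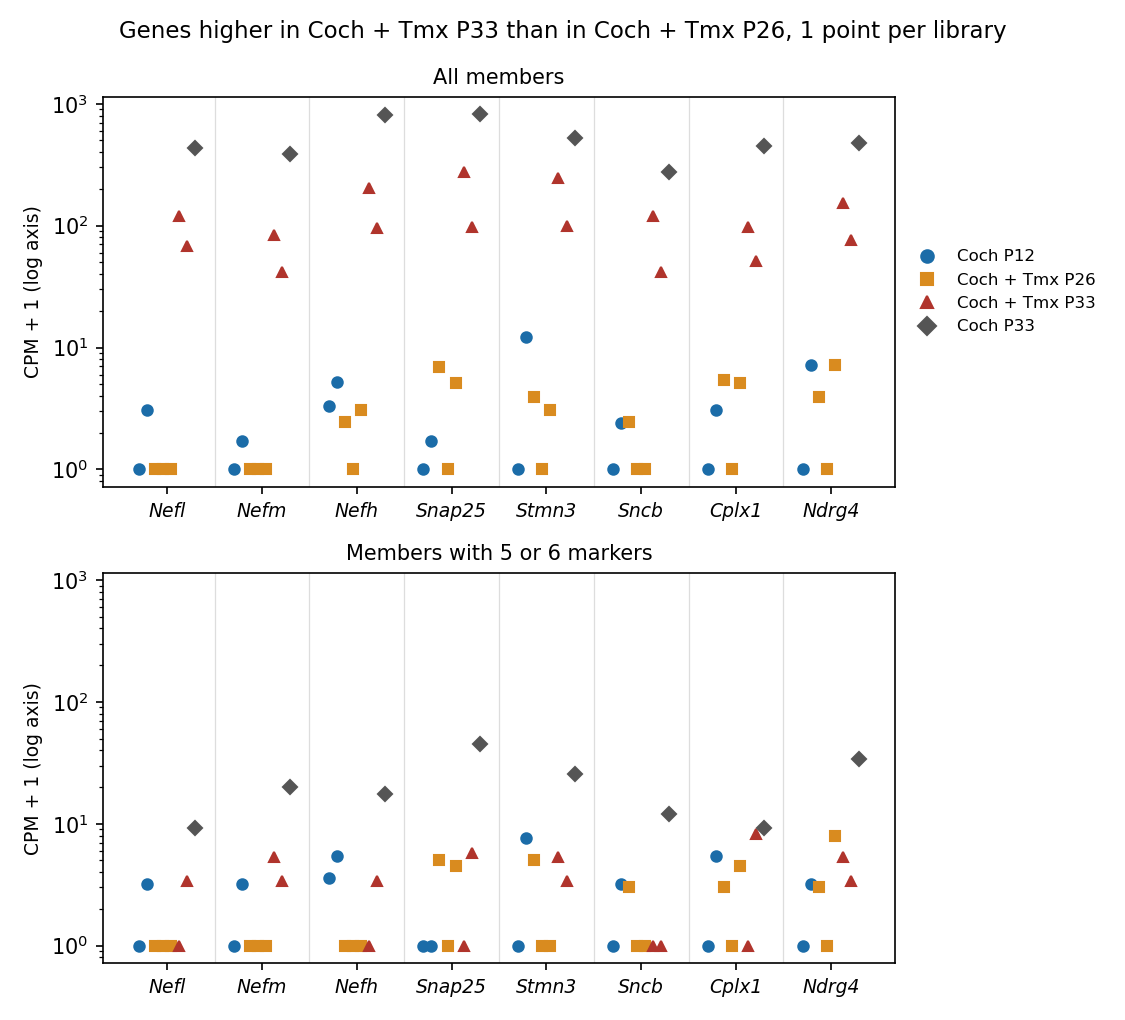
Levels of 8 genes that were higher in Coch + Tmx P33 than in Coch + Tmx P26, in CPM + 1 on a log axis, with 1 point per library. The high values of Coch + Tmx P33 and Coch P33 over all members (upper panel; Snap25, 275, 96.9 and 818 CPM) stand against low values in members with 5 or 6 markers (lower panel; 0, 4.81 and 43.8 CPM).

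With at least 4 markers 2 of 8364 genes (0.0239%) passed in the same comparison, Gjb2 and Prss23. Gjb2 was at 5.84, 4.79 and 13.2 CPM in Coch + Tmx P26 and at 102 and 65.4 CPM in Coch + Tmx P33, a log2 change of 3.32 (SE 0.44, edgeR adjusted p = 0.00676). In the cells with 5 or 6 markers the groups overlapped, with 4.37 and 48.1 CPM in Coch + Tmx P33. The cells with exactly 4 markers, 2 and 4 in number, thus held most of the level in Coch + Tmx P33 rep 1 but not in rep 2. Prss23, a serine protease, was at 1.95, 0 and 0 CPM against 118 and 101 CPM. It was at 30.6 and 48.1 CPM in the Coch + Tmx P33 cells with 5 or 6 markers and at 500 and 430 CPM in other epithelial cells of those libraries.

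At P33 the induced libraries were also set beside the single uninduced library. With 1 library of Coch P33 there is no replicate check, and the exact 95% Poisson intervals cover counting error only. Of 4010 genes with at least 50 CPM on the higher side, 210 (5.24%) were at least 4-fold apart from both induced libraries with separate intervals, 160 higher in Coch P33 and 50 higher in Coch + Tmx P33. Hemoglobin led the former. Hba-a1 was at 21581 CPM in Coch P33 (21345 to 21819) against 289 and 470 CPM, and Hbb-bt, Hba-a2 and Hbb-bs were among the 10 largest with it, followed by genes of vessels, stroma and antigen presentation such as Emcn (719 CPM against 10.7 and 8.08), Emilin2 (1051 against 17.9 and 26.2) and Cd74 (381 against 7.14 and 2.02).

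The 10 genes that were most in excess in Coch + Tmx P33 included 3 of the 25 leading genes of members. Gpx3 was at 6100 CPM (5814 to 6396) and 5203 CPM (5004 to 5408) against 643 CPM (603 to 685) in Coch P33, Meis1 at 404 and 376 against 74.4, and Rab27b at 454 and 598 against 103. Wnt4 was at 157 and 127 CPM against 17.6 CPM. The share of members with 5 or 6 markers also differed, with 35.7% in Coch P33 against 88.2% and 82.5%, and its part in these values was not tested. In the cells with 5 or 6 markers Gpx3 was at 7348 and 6048 CPM against 2527 CPM, Meis1 at 476 and 430 against 291, Rab27b at 524 and 678 against 395 and Wnt4 at 188 and 147 against 71.3, all under 4-fold.

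In that narrower set 66 of 3886 genes (1.70%) were at least 4-fold higher in Coch P33, and no gene was listed as higher in Coch + Tmx P33. Pmp22, a peripheral myelin protein, was at 392 CPM against 0 and 28.8. Apod, a lipid carrier of glia and fibroblasts, was at 3393 CPM against 34.9 and 62.5 CPM, and Kcnk2, a potassium channel, at 345 CPM against 0 and 2.40. Summed over 6 Schwann cell genes the narrower set held 2302 CPM in Coch P33 against 105 and 151 CPM in Coch + Tmx P33, and the 6 erythroid genes 9038 CPM against 1087 and 1534. The part of Schwann cells and of free hemoglobin RNA in these differences was not tested.

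The Atoh1 counts do not separate the endogenous gene from the transgene. Atoh1 had a UMI in 13.4% of the 404 members and in 14.0% of other kept cells, at median depths of 9402 and 5973 UMIs. The share was 6.74% in the 282 cells with 5 or 6 markers and 28.7% in the members with 3 or 4, at 8149 and 15862 UMIs. In Coch + Tmx P26 7, 0 and 3 members had an Atoh1 UMI, and in Coch + Tmx P33 5 and 3. Without tamoxifen 4 and 16 P12 members had one, and 16 P33 members. Among cells with 5 or 6 markers the numbers were 3, 0, 1, 4 and 2 in the induced libraries and 3, 4 and 2 in the uninduced ones. Fgfr3, which drives the Cre, had a UMI in 1.77% of the 282 cells against 23.0% of the members with 3 or 4 markers and 7.8% of other kept cells.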

How the data were processed

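Per the labels and the study's methods, cells of the organ of Corti were dissociated, captured with 10x Genomics 3′ chemistry and sequenced. The authors aligned reads with Cell Ranger to mm10 (named in the submitters' processing notes, version not given in the sources used here), and the deposited values are raw UMI counts per gene and barcode for 27998 genes, 1 matrix per library, before the study's own removal of cells. GEO's labels gave the groups and the replicate numbers. Members and gene lists were chosen with earlier results of these data known.

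Barcodes under 500 detected genes (1954) or with at least 25% mitochondrial UMIs (84) were left out. Doublets were scored with scrublet (scanpy 1.11.5) and left in, except in an alternative: 8 members were among the 41 highest-scoring barcodes. CPM are UMIs per 1000000 UMIs of the summed cells, and since 3′ ends are counted they do not scale with transcript length. Counts were summed per library over members (10 cells at least) and tested with edgeR 4.0.16 (quasi-likelihood, TMM, filterByExpr, Benjamini-Hochberg over all genes tested, threshold 0.05). Recovery of known changes was first tested on simulated data. These had the same dispersion for every gene and no difference in cell mixture between libraries, unlike the data used here. The SE given beside edgeR's log2 changes is the absolute change divided by the square root of the test's F statistic. It is not an error estimated by the model and is rough for genes with few UMIs in a group. DESeq2 1.42.0 was an alternative. Shares were compared with exact permutation tests (scipy 1.17.1). Ratios of members to other cells used CPM + 10. Summed members held 208795 to 1478371 UMIs per library, so that 1 UMI is worth 0.676 to 4.79 CPM.

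Named genes were, for each test, up to 15 per direction among those past the threshold with groups that do not overlap and at least 50 CPM in the higher group (rule, mitochondrial, Gm- and Rik-numbered genes excepted), passing or defining genes of the lists, the 25 with the largest median ratio to other kept cells among genes of at least 50 CPM in every library, and for P33 the 10 largest per direction. Same-numbered replicates did not deviate together (correlations of -0.39 to 0.07). Alternatives changed the marker minimum, required Epcam, changed the cell filters, doublets, mixed droplets, depth, normalisation, count filter, tool, design and block, and left out libraries. Some genes that met these rules are not reported here.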

Additional observations from a re-analysis of the deposited data

Results flagged for a closer look

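Oc90 in members of the 6 later libraries was highest in Coch + Tmx P26 rep 1, at 7.35 CPM, which lay far from the other 5 libraries (0 to 0.676 CPM). It was the 1 flag among 8 groups of values examined, and chance flags about 1 in 20 such groups. The value rests on 5 UMIs and is small beside the 432 and 1233 CPM of Coch P12.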

How the results depend on the processing

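Few members per library (20 to 77 cells), 2 libraries at P12 and 1 of Coch P33 limit what could be detected. The share of later minus P12 libraries stayed positive, from 0.176 to 4.01 points when 1 library was left out, and no alternative passed the exact permutation test. The share of induced minus uninduced libraries, -1.002 points, was reversed with at least 4 markers (1.14 points), with an Epcam UMI (0.992), without mixed droplets (2.81), after thinning (2.01), without Coch P33 (1.19) and, added after seeing the data, without Coch P12 rep 2 and Coch P33 (3.11), and ran from -3.06 to 1.19 when 1 library was left out.

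Of the 6 calls of later against P12, the number became 23 with at least 4 markers, 20 with an Epcam UMI, 70 without mixed droplets (which left Coch P12 rep 2 and Coch P33 under 10 cells), 34 with DESeq2, 45 without a filter on low counts, 17 for the mean of the 3 later groups, 13 without Coch P12 rep 2 and Coch P33, 1 with induction as a term and 0 in uninduced libraries only (edgeR, 578 of 11127 at an unadjusted p under 0.05). It ran from 1 to 45 when 1 library was left out: 3 without Coch + Tmx P26 rep 1, 2 without rep 2, 1 without the library labelled rep 3, 2 and 1 without Coch + Tmx P33 rep 1 and rep 2, 45 and 3 without Coch P12 rep 1 and rep 2, where the lone P12 library is assumed to vary like the later ones, and 20 without Coch P33. Oc90 passed in 22 of 24 alternatives, the exceptions being the induction term (edgeR adjusted p = 0.0525) and uninduced libraries only (0.484). Nrep and Nr1d1 passed in 15 of 24, Wisp1 in 14 of 23, Klk8 in 13 of 22 and Col11a1 in 10 of 24. These counts include the alternative of at least 20 member cells per library, which left out no library and repeated the main fit. The direction of the 6 genes was the same in each alternative run. The larger numbers of calls need not hold the same genes. Of the 6, 5 passed with at least 4 markers, 6 with an Epcam UMI, 6 with DESeq2 and 0 with induction as a term. Without mixed droplets Coch P12 rep 1 was the only P12 library left.

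The 14 calls of Coch + Tmx P33 against Coch + Tmx P26 became 2 with at least 4 markers, 0 with an Epcam UMI (282 at an unadjusted p under 0.05), 0 with under 10% mitochondrial UMIs (280), 4 without high doublet scores, 7 without mixed droplets, 37 with DESeq2, 7 with DESeq2 size factors and 227 without a filter on low counts, and 0 to 31 when 1 library was left out (0 without each Coch + Tmx P26 library, 3 and 5 without Coch + Tmx P33 rep 1 and rep 2, 30 and 31 without Coch P12 rep 1 and rep 2, 2 without Coch P33). Without mixed droplets 5113 genes were tested, and none of the 14 was among the 7 calls, of which 2 were higher and 5 lower at P33. Snap25 had log2 changes of -0.0061 with at least 4 markers and -0.21 with an Epcam UMI, and Sncb of -2.10 with at least 4 markers. The interaction with other epithelium gave 1 call with an Epcam UMI (Hes5, named after its value was seen), 36 without mixed droplets, 8 without a filter on low counts, and 0 to 3 when 1 library was left out (3 without Coch P33).

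The labels share replicate numbers between groups, but nothing else pairs them. With the replicate block there were 13 calls of later against P12 and 0 of Coch + Tmx P33 against Coch + Tmx P26 (223 at an unadjusted p under 0.05), and the interaction already has library as a block. Unless a value above shows it by fewer cells or libraries, the cause of these changes was not tested.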
